A study of Mus musculus with 2 samples.

Results

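The chemokine receptor genes of mouse chromosome 9 were examined in a map of PPARγ binding in TH2 cells. They were Ccr9, Cxcr6, Xcr1, Ccr1, Ccr1l1, Ccr3, Ccr2 and Ccrl2, and every deposited peak inside or within 100 kb of the body of one of these 8 genes was taken. Of the 2537 peaks in the list, 8 met this rule. The map came from 1 ChIP library: naive CD4+ T cells of C57BL/6J mice were activated, polarised to TH2 in culture, given retrovirus for TY1-tagged Pparg on days 1 and 2, and harvested on day 4 for ChIP with a TY1 antibody. The 1 input library came from cells transduced alike, without antibody, and was used by the authors to remove background peaks. The tagged receptor was supplied by the vector, and the antibody reads the tag, so the peaks describe the introduced protein and not the cell's own. There was no replicate, and no p-value is given.

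Chemokine receptors are G protein-coupled receptors that steer leukocytes along gradients of secreted chemokines, and the set a T cell carries helps to decide which tissues it can enter. The genes on chromosome 9 arose largely by tandem duplication, so neighbours often resemble each other in sequence. PPARγ is a ligand-activated nuclear receptor that binds DNA with its partner RXR at DR1 elements, direct repeats of AGGTCA with a spacer of 1 base. AP-1 sites are bound by the FOS, JUN and BATF proteins, which are induced when T cells are activated.

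The gene label fitted 7 of the 8 genes. From Ccr9 to Ccr2 these 7 genes spanned 435 kb in GENCODE and 342 kb in RefSeq. The last of them ended 482 kb before the end of the chromosome in GENCODE. Ccrl2 lay 12.6 Mb away from Ccr9, beside Ltf and Lrrfip2, and is described apart. Along the chromosome the order of the 7 genes was Ccr9, Cxcr6, Xcr1, Ccr1, Ccr1l1, Ccr3 and Ccr2. Ccr9, Cxcr6, Ccr3 and Ccr2 were on the forward strand, and Xcr1, Ccr1 and Ccr1l1 on the reverse strand.

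**Figure D1:**
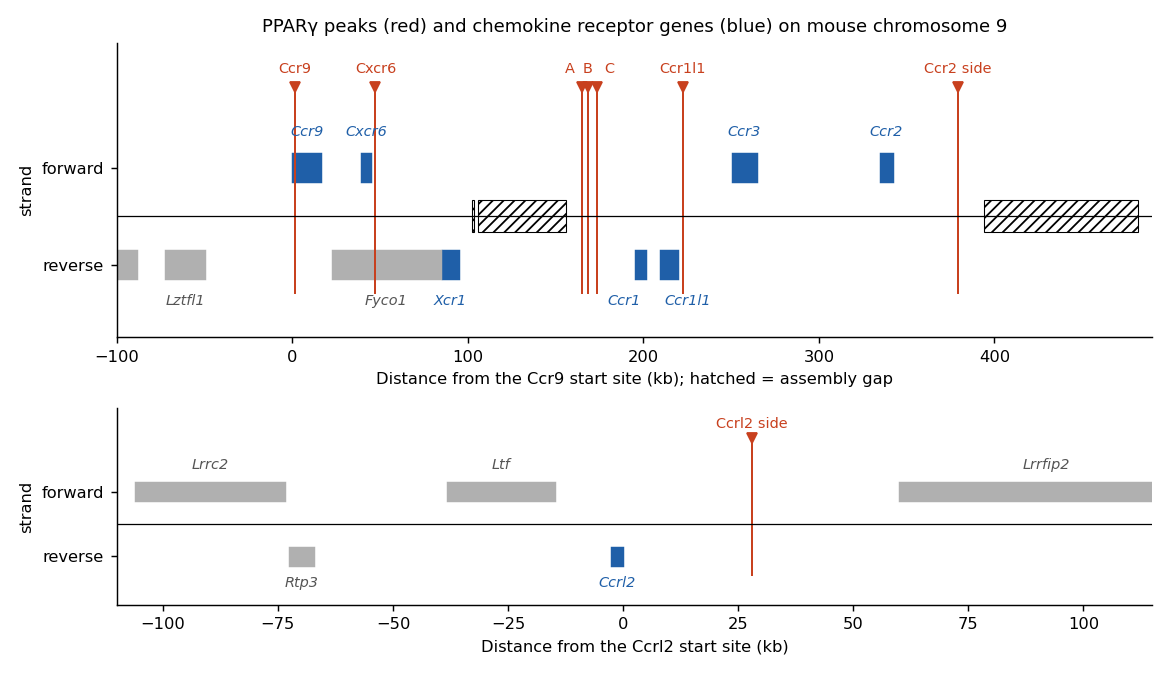
Positions of the 8 peaks (red lines with triangles) and of the receptor genes (blue, RefSeq gene bodies) and other named genes (grey), with distance in kb on the x axis and the strand on the y axis; hatched boxes are runs of N in the assembly. The upper panel shows 7 peaks around the 7 clustered genes, with 3 of them, marked A to C, just past the gap of 50.0 kb, and the lower panel shows the single peak at Ccrl2.

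The sequences of 5 peaks carry the observations below and are shown on the forward strand of mm10, 173 bases each. The Ccr9 peak is shown for its DR1 and AP-1 matches, the Cxcr6 peak and peak A for an element they have in common, peak C for a DR1 that begins at its edge, and the Ccr1l1 peak for a variant receptor site. Capitals mark DR1 matches, AP-1 matches, AGGTCA and its variant AGTTCA, on either strand.
Ccr9 peak, chr9:123768576-123768748: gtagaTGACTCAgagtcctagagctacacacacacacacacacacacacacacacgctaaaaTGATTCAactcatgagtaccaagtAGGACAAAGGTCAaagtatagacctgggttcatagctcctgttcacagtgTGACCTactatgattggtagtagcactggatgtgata
Cxcr6 peak, chr9:123814472-123814644: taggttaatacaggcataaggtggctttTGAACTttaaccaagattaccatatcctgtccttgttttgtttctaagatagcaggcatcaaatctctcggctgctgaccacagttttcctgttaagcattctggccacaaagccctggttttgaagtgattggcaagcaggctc
Peak A, chr9:123932026-123932198: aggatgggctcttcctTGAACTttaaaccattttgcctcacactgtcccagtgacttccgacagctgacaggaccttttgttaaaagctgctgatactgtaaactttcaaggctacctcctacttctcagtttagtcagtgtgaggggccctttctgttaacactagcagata
Peak C, chr9:123940630-123940802: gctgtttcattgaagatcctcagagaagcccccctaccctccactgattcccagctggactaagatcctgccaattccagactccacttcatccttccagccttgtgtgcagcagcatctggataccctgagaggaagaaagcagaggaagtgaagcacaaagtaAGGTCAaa
Ccr1l1 peak, chr9:123989382-123989554: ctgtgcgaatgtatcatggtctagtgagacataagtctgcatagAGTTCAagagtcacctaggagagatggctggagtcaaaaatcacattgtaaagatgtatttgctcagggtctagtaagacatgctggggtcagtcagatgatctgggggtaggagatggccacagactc

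Per the file header, the ChIP library held 10229438 tags, of which 54617 lay in peaks, a mean of 21.5 tags per peak. The rows hold no tag count for a single peak, and their score is 1 throughout, so no peak can be called stronger than another. The 8 peaks stood at rows 3, 47, 522, 681, 864, 971, 972 and 2277 of the file. The Ccr9 peak was at row 3, the peak beyond Ccr2 at row 47 and peak C at row 2277. The file does not state what its order stands for.

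All 8 receptor genes had a peak within 100 kb of the gene body, against 26.4% of the 21951 protein-coding genes of GENCODE vM21. The genes lie close together and share peaks, so this count does not stand for 8 separate observations. When each peak was given to the protein-coding gene with the nearest transcription start site (TSS) within 100 kb, 5 of the 8 receptor genes received at least 1 peak, against 7.91% of all protein-coding genes. They were Ccr9, Cxcr6, Ccr1l1 and Ccrl2 with 1 peak each and Ccr1 with 3, which accounts for 7 of the 8 peaks. Xcr1, Ccr3 and Ccr2 received none. Only Ccr9 held a peak inside its body.

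Ccr9, the receptor for CCL25 that directs T cells to the small intestine, had the peak closest to a start site. Its centre lay 1.43 kb downstream of the nearest GENCODE start site and 1.45 kb from the RefSeq one. In the protein-coding Ccr9 transcripts the position is intronic. It is also covered by an exon of a Ccr9 transcript with a retained intron and by an exon of AC165425.1, a noncoding transcript that GENCODE places on the reverse strand, opposite to Ccr9. The Ccr9 body is 106 kb long in GENCODE, where 1 transcript starts far upstream, and 16.2 kb long in RefSeq; the peak was inside both.

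The Ccr9 peak was the only receptor peak with a DR1 match, and the match lay at its centre. DR1 was searched on both strands, and 2 of its 12 fixed bases were allowed to differ. The match read AGGACAAAGGTCA on the forward strand, centred 6 bp from the peak centre. It had 1 mismatch, T4A, counted from the first base of the upstream repeat, so the downstream repeat was complete. Its spacer was A and the base before it T. The same peak held the AP-1 sequence TGACTCA 78 bp from its centre and TGATTCA 21 bp from it. A further AGGTCA lay on the reverse strand 53 bp from the centre.

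Cxcr6, the receptor for CXCL16 found on activated and tissue-resident T cells, had a peak 8.06 kb downstream of its start site. The peak lay 2.71 kb past the 3′ end of Cxcr6 and inside an intron of Fyco1, which runs on the reverse strand across Cxcr6 and encodes an adaptor for autophagosome transport. The start site of Cxcr6 was nevertheless the nearest protein-coding one; by nearest gene body the peak went to Fyco1, and Cxcr6 received none. This peak held neither a DR1 nor an AP-1 match. Its best DR1 alignment, TGGTTAAAGTTCA on the reverse strand, had 3 mismatches. Ccr9 and Xcr1 were within 100 kb of this peak too, at 30.1 and 37.7 kb from their bodies.

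Between Xcr1 and Ccr1 lay 3 peaks in a row, here called A, B and C. Xcr1 is the receptor for XCL1 and marks cross-presenting dendritic cells, and Ccr1 is a receptor for CCL3 and CCL5 on myeloid and T cells. Peaks A and B were 3.48 kb apart, peaks B and C 5.12 kb, and the centres of A and C 8.6 kb. Each had at least 2 other peaks within 10 kb, which was true of 2.64% of all peaks. They were intergenic and lay 36.6, 33.1 and 28.0 kb from the Ccr1 start site, on the 3′ side of that gene. From the Xcr1 start site they were 70.1, 73.6 and 78.7 kb away, on its upstream side.

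The assignment of peaks A and B to Ccr1 rested on a long assembly gap, and that of peak C on this gap and a shorter one together. The 100 kb between Xcr1 and Ccr1 contain a run of exactly 50000 unread bases, which ends 9 kb before peak A, and a shorter run of 787 bases. Whether the length of the longer gap was measured is not stated in the sources used here. With the 50.8 kb of gap left out, peaks A, B and C lay 19.3, 22.8 and 27.9 kb from the Xcr1 start site and were nearer to it than to Ccr1. Peak C was then almost midway, at 27900 bp from Xcr1 and 27976 bp from Ccr1. With only the run of 50000 bases left out, peak C stayed nearer to Ccr1. The distance from the Cxcr6 peak to peak A was 118 kb with the gap and 66.8 kb without it. No tag can map to a gap, so binding there could not be seen.

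**Figure D2:**
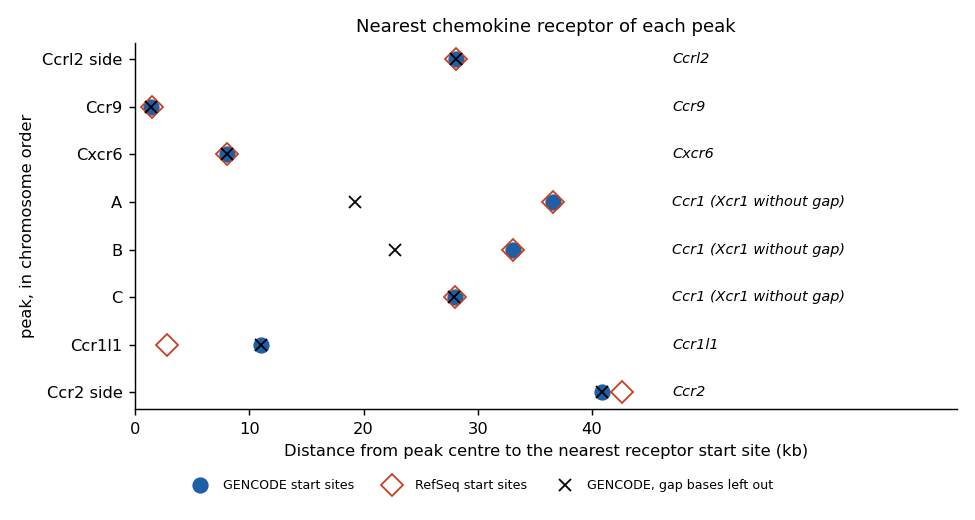
Distance in kb (x axis) from each peak centre to the nearest receptor start site, for the 8 peaks in chromosome order (y axis). Blue circles are GENCODE, open diamonds RefSeq, and crosses GENCODE with both gap runs between Xcr1 and Ccr1 left out. The gene is named at the right. Peaks A to C change from Ccr1 to Xcr1 when both runs are left out, peak C narrowly. The Ccr1l1 peak moves to 2.75 kb by RefSeq.

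Peaks A and B held no AGGTCA, no DR1 match and no AP-1 match. Peak C held AGGTCA 82 bp from its centre, 2 bases from its right edge. Read 5 bases past that edge, it continued as AGGTCAAAGTTTA, a DR1 with 2 mismatches, G10T and C12T, centred 85 bp from the peak centre. Peaks A and C each held a STAT-type site, TTCCTTGAA in A and TTCATTGAA in C, 71 and 77 bp from the centre. Sites of this form, TTCNNNGAA, occurred in 8.83% of all peaks and in 6.11% of the 700297 consecutive windows of 173 bp on chromosome 9.

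Ccr1l1, a mouse gene close in sequence to Ccr1 and without a well-established ligand, had a peak upstream whose distance depended on the gene model. It lay 11.1 kb from the GENCODE start site, where the gene is 1.17 kb long, and 2.75 kb from the RefSeq start site, where it is 10.3 kb long. It was 20.8 kb upstream of Ccr1 and, on the other side, 32.5 kb upstream of Ccr3, the receptor for eotaxin on eosinophils and TH2 cells. For Ccr3 this was the nearest peak of the list. The Ccr1l1 peak had neither a DR1 nor an AP-1 match, and its best DR1 alignment, AGTTCAAGAGTCA, had 3 mismatches.

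Ccr2, the receptor for CCL2 on monocytes and some T cells, had a single peak within 100 kb. It lay 40.9 kb downstream of the nearest Ccr2 start site and 32.9 kb past the 3′ end in GENCODE, in an intron of another protein-coding gene, whose start site was nearer than that of Ccr2. From the Ccr1l1 peak it was separated by 157 kb without a peak, a stretch that contains all of Ccr3 and Ccr2. It held the AP-1 sequence TGANTCA at 15 and at 34 bp from its centre, both with C or G in the middle, and no DR1 or AGGTCA. A second large gap, of 87.4 kb, begins 14.9 kb beyond it.

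Ccrl2, an atypical receptor that binds chemerin and does not signal like the others, had an intergenic peak 28.1 kb upstream (chr9:111085490-111085662). Ccrl2 was the nearest protein-coding gene by start site, and Ltf and Lrrfip2 on its sides received no peak. The peak held no DR1, AP-1 or AGGTCA match. Its best DR1 alignment, GGGTGAAGGGTCA on the reverse strand, had 3 mismatches.

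The share of receptor peaks with DR1 could not be told apart from that of the whole list. DR1 was present in 1 of 8 receptor peaks, or 12.5% (exact 95% binomial interval 0.316 to 52.7), against 18.2% of all 2537 peaks and 2.28% of windows of the same length on chromosome 9. The best DR1 alignment had 3 mismatches in 3 of the receptor peaks, 4 in peaks A and B and in the peak beyond Ccr2, and 5 in peak C. Among all peaks, 26.7% had 3 mismatches at best, 36.9% had 4 and 17.6% had 5. AP-1 sites, TGANTCA, were in 2 of 8 receptor peaks (25%, interval 3.19 to 65.1) and in 20.7% of all peaks. With C or G in the middle they were in the same number, 2 of 8, and in 15.6% of all peaks. Chromosome 9 windows held these forms at 5.17% and 2.84%. AGGTCA stood in the Ccr9 peak and peak C, 2 of 8, against 25.7% of all peaks and 10.1% of windows.

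**Figure D3:**
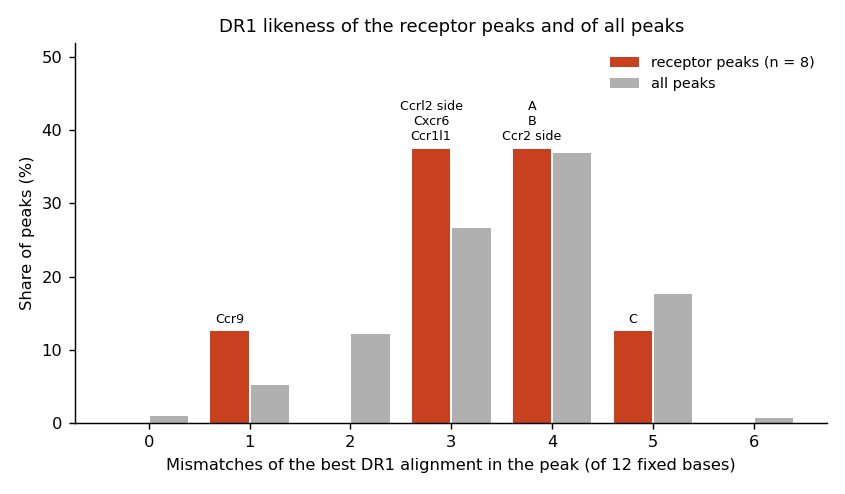
Share of peaks in percent (y axis) by the number of mismatches of the best DR1 alignment (x axis), for the 8 receptor peaks (red, named above the bars) and for all peaks (grey). The Ccr9 peak stands alone at 1 mismatch, and the other 7 have 3 to 5.

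The 6 receptor peaks with neither DR1 nor AP-1 were those at Ccrl2, Cxcr6 and Ccr1l1 and peaks A, B and C. Of all peaks, 64.7% lacked both. Sites of other T cell factors were searched on both strands, and none of the 8 peaks held any of those that follow. The GATA site (AGATAA, or T as its first base) was in 23.5% of all peaks. The NFAT site (TGGAAA) was in 16.4%, and the STAT form with 4 bases between TTC and GAA in 7.21%. The RUNX site (TGTGGTT, or the same with C before GGTT) was in 6.66%. The IRF site, GAAA repeated after 2 bases, was in 3.67%. The ETS site (ACAGGAAG, or the same with C before GGAAG) was in 3.39%. The CTCF site was in 1.69% and the T-box site (AGGTGTGA) in 0.828%. With 8 peaks, 0 matches leave an upper exact limit of 36.9%, which lies above every one of these shares. The receptor peaks had a GC content between 40.5% and 50.3%, with a median of 45.7%, against a median of 43.4% in all peaks. Repeat-masked bases were present in 6 of the 8 receptor peaks, against 59.9% of all peaks. They made up a median of 12.7% of a receptor peak and at most 26%, against a median of 11.6% in all peaks.

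As on the rest of chromosome 9, most DR1 matches in the cluster carried no peak. In the 635 kb from 100 kb before Ccr9 to 100 kb after Ccr2 there were 60 matches with up to 2 mismatches, of which 1 (1.67%), in the Ccr9 peak, lay in a peak. On the rest of chromosome 9 it was 25 of 17651 matches, or 0.142%. A single match in a peak sets the share of the cluster, and the difference was not tested. The cluster also held more peaks for its length, 11 per Mb against 1.08 per Mb on chromosome 9, so these shares are not on an equal footing. With at most 1 mismatch there were 12 matches. Only 2 were complete, both AGGTCAGAGGTCA and both outside peaks. The first (chr9:123680105-123680117) lay in repeat-masked sequence 88.6 kb from the Ccr9 peak. By GENCODE it was inside the Ccr9 body, 1.67 kb from the far upstream start site. The second was partly repeat-masked and lay 9.11 kb from the peak beyond Ccr2. A site with 1 mismatch lay between peaks B and C, 1.61 kb from the nearer of them. In the RefSeq promoters of the 8 genes, 250 bases before to 50 after the start, DR1 had 0 matches, against 3.86% of all 32851 promoters. TGANTCA was in those of Ccr1l1 and Ccr3, against 7.81% of all promoters, and none of these promoters overlapped a peak.

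The cluster was dense in peaks. The 635 kb held 7 peaks, or 11 per Mb, against 1.08 per Mb on chromosome 9 and 0.931 per Mb over the genome. That was 10.2 times the value of chromosome 9. Gaps took up 16.2% of this stretch, and without them the density was 13.2 per Mb. The values for chromosome 9 and the genome include gap bases, as do the windows below. When the genome was divided into 4279 consecutive windows of 635 kb, 15 of them (0.351%) held 7 or more peaks and 2913 held none. The cluster window was placed around the genes by their GENCODE ends, whereas the other windows began at fixed positions.

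**Figure D4:**
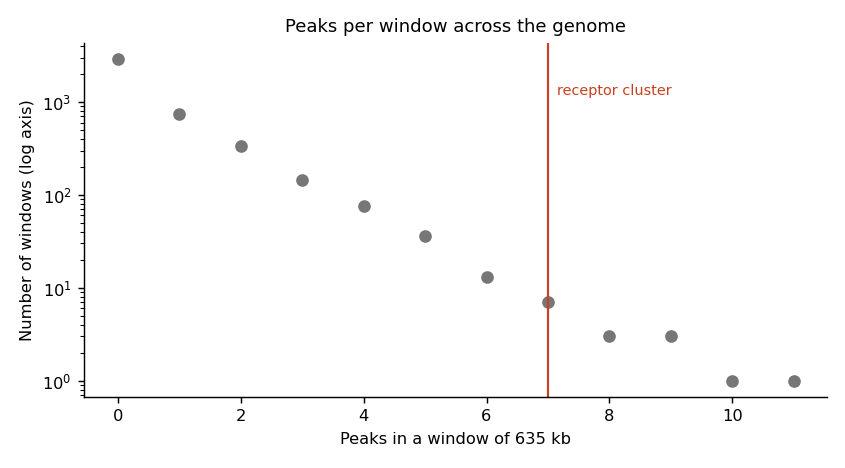
Number of consecutive 635 kb windows of the genome (y axis, log scale) by the number of peaks they hold (x axis). The red line marks the 7 peaks of the receptor cluster, a value reached or passed by 15 of 4279 windows.

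Among 15 further chemokine receptor genes examined, peaks were about as frequent as among all protein-coding genes. By nearest start site 1 of them received a peak (6.67%, against 7.91% of all protein-coding genes), and 4 had one within 100 kb of the body (26.7%, against 26.4%). The gene that received a peak was Ccr8, a TH2 and skin homing receptor that lies elsewhere on chromosome 9, with a peak 0.752 kb from its start site. Of the other genes of the family on chromosome 9, Cx3cr1 and Ackr2 had their nearest peaks at 21.5 and 83.1 kb, whereas Ccr4, Cxcr5 and Ackr4 had none within 100 kb. The peak near Cx3cr1 was the Ccr8 peak, so the 4 genes do not stand for 4 separate observations. Whether the 8 genes differ from these 15 was not tested.

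Tags with more than 1 position in the genome were not used by the authors, which matters among paralogs. In the sequence of the cluster outside gaps, 89.3% of 50-base windows occurred once in the genome. The share was 100% in Cxcr6 and Ccrl2, 97.8% in Ccr9 and 98.0% in Ccr2, and it was lowest in Ccr1 at 79.9% and in Ccr1l1 at 86.9%. In Ccr1, 1312 windows occurred 2 times: a stretch of 1533 bases in the RefSeq body of Ccr1l1 contains copies of all of them. With windows of 100 bases the shares were 82.1% in Ccr1 and 88.6% in Ccr1l1. All 50-base windows were unique in each of the 8 peaks except peak C, where 96.0% were.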

How the data were processed

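The authors aligned reads to mm10 with Bowtie2, kept uniquely mapped tags and called peaks with HOMER, per the submitters' processing notes and the series text; versions are not given in the sources used here. The series text and the labels' protocols give read lengths of 100 and 50 bp, so sequence uniqueness was counted for both lengths. Per the file header, peaks of 172 bp were called against the input with a false discovery rate of 0.001 and at least 4-fold over input and local background, with at most 1 tag per position. The deposited score is 1 in every row, so it was not used.

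Coordinates count from 1. Genes came from GENCODE vM21, with RefSeq GRCm38.p6 as an alternative; sequence came from RefSeq GRCm38.p6, the assembly of mm10, and all peaks lay within its chromosomes. Distances to start sites run from the peak centre, over all transcripts of a gene. Motifs were counted inside the deposited 173 bp. Repeats are the lower-case bases of the reference. Intervals are exact binomial (Clopper-Pearson) and cover counting error only. The genes, lists and motifs were chosen with earlier results of these data known. The naming rule covered the 8 genes, their neighbours and the rest of the family; 1 gene that it names is not reported here and is in no tally of the family. The AP-1 form with C or G in the middle, AGTTCA, the shared run, the gap correction and the RefSeq gene models were added after seeing the data. The motif scan, nearest-gene search and uniqueness count were checked on simulated data. Python 3.11.15, numpy 2.4.6, scipy 1.17.1 and matplotlib 3.10.9 were used.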

Additional observations from a re-analysis of the deposited data

How the results depend on the processing

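The count of 8 peaks was the same within 50 and 200 kb, from start sites and with RefSeq genes; 1 peak overlapped a gene body. Within 10 kb, 2 peaks were assigned, to 2 genes. By nearest gene body, 6 peaks were assigned to 4 genes, since the Cxcr6 peak went to Fyco1; with the 8 receptor genes alone competing, all 8 peaks were assigned. The gap, RefSeq and coding transcript alternatives, chosen after seeing the data, left 7 peaks assigned to 5 genes. Xcr1 took the place of Ccr1 when both gap runs between them were left out. Without Ccrl2, also chosen then, 7 peaks remained in the rule, 1 with DR1 and 2 with AP-1. For DR1, 0 peaks matched with 0 mismatches, 4 with 3 mismatches, and 2 in windows of 200 or 400 bp, where peak C was added. The last 1269 rows of the file held 1 of the 8 peaks, 1 assigned peak, 1 gene with one, 0 DR1 matches, 0 AP-1 matches and 1.57 peaks per Mb. No paired analysis was possible because there is 1 ChIP library, so no replicate could be left out. Depth limits all statements on absent peaks: a peak needed at least 8 tags.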

Other observations

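The Cxcr6 peak and peak A had a run of 11 bases in common, TTGAACTTTAA, on the same strand and 54 and 66 bp from their centres. It was the longest run that any 2 of the 8 peaks shared, and in peak A it overlapped the STAT-type site TTCCTTGAA. The run was found by comparing these peaks with each other and was not tested. It occurred in 3 of all 2537 peaks (0.118%) and in 123 windows of 173 bp on chromosome 9 (0.0176%). Its reverse complement, TTAAAGTTCAA, contains AGTTCA, a known variant of the nuclear receptor site. AGTTCA stood in 3 of the 8 peaks, those at Cxcr6 and Ccr1l1 and peak A, none of which held AGGTCA. The Cxcr6 peak and peak A held it because they held the run, so only the Ccr1l1 peak adds to the run. AGTTCA was in 15.8% of all peaks and in 12% of the windows on chromosome 9, and the difference was not tested.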
